A study of Mus musculus with 10 samples.

Results

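The neurotrophins are secreted growth factors. In the ageing mouse neocortex, 7 genes for neurotrophins, their receptors and a related sorting receptor were followed. These were the ligands Bdnf and Ntf3, the Trk receptor kinases Ntrk2 and Ntrk3, p75 receptor Ngfr, and Sort1 and Sorcs1 of the sortilin family. They were found by gene identifier in the annotated array table. The 7 genes had 26 probe sets, of 17876 genes and 45037 probe sets that the table held. The samples were 10 Affymetrix arrays, 1 per mouse, from 5 male mice aged 30 months and 5 male mice aged 5 months. All were B6C3F1 hybrids of 1 cross, housed singly without specific pathogens and kept on the AIN-93M control diet. RNA came from frozen neocortex, a piece of tissue that holds many cell types. The comparison asks which neurotrophin transcripts differ between old and young adult neocortex.

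In cortex, BDNF is made mainly by excitatory neurons and released at synapses in response to activity, and neurotrophin 3, the product of Ntf3, acts mostly in development. BDNF binds TrkB, the product of Ntrk2, and neurotrophin 3 binds TrkC, the product of Ntrk3. Both receptor genes also make shortened forms without the kinase, and astrocytes carry the shortened TrkB. The uncleaved precursors, the proneurotrophins, bind p75 together with sortilin, and sortilin also steers BDNF into the secretory pathway. SorCS1 is a sorting receptor of neurons from the same family.

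Bdnf is read from several promoters, each with its own first exon, and the reference table held 7 windows of 250 bases before a Bdnf start. The 2 windows below, from RefSeq (GRCm38.p6, plus strand, 5′ to 3′), are shown because Bdnf is both a ligand whose signal changed here and a gene known for promoters that respond to activity. The first lies before the first start of the gene at chr2:109674450-109674699. The second lies before the start of exon IV at chr2:109692186-109692435, and its capitals mark a match to TGACG, the core of the cAMP response element, on the opposite strand, 35 bases before the start.
Bdnf first start: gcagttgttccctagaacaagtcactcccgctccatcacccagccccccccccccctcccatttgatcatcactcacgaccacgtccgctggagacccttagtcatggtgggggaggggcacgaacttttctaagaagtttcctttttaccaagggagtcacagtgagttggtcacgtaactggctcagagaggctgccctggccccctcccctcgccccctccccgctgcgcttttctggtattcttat
Bdnf exon IV: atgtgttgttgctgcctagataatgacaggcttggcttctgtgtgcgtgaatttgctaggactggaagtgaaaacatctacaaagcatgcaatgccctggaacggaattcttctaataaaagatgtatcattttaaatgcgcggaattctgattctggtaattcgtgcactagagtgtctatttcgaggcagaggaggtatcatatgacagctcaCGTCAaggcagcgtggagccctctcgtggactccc
The motif was searched on both strands. Of the 7 Bdnf windows 1 held it, and of the 12 windows listed for Bdnf, Ntf3, Ntrk2, Ngfr and Sorcs1 together also 1, against 17.8% of all 32851 windows of that length. The full palindrome TGACGTCA was in 0 of the 12 windows and in 1.55% of all windows. A match is a run of letters and not a measured site. The arrays do not tell which first exon a Bdnf transcript carried.

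Of the 7 genes, 5 had a probe set above the filter on dim signals, which kept probe sets with a mean log2 signal over 6.89, the array-wide median. The brightest such probe set gave the value of its gene. In limma's test across 11963 genes, with Benjamini-Hochberg adjustment and a call at an adjusted p under 0.05, Bdnf was lower and Ntrk2 was higher at 30 months. The main probe sets of Ntrk3, Sort1 and Sorcs1 were not called. The same test called 46.3% of all genes tested, 34% higher and 12.3% lower, so that 2 of 5 is near the share of all genes. Of the 14 member probe sets above the filter, 7 were called, against 41% of all 22518 probe sets tested, of which 29.1% were higher and 11.8% lower. The other 12 member probe sets were dim, and Ntf3 and Ngfr had only such probe sets. In bulk tissue, fewer cells of a type and less RNA per cell cannot be told apart.

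**Figure D1:**
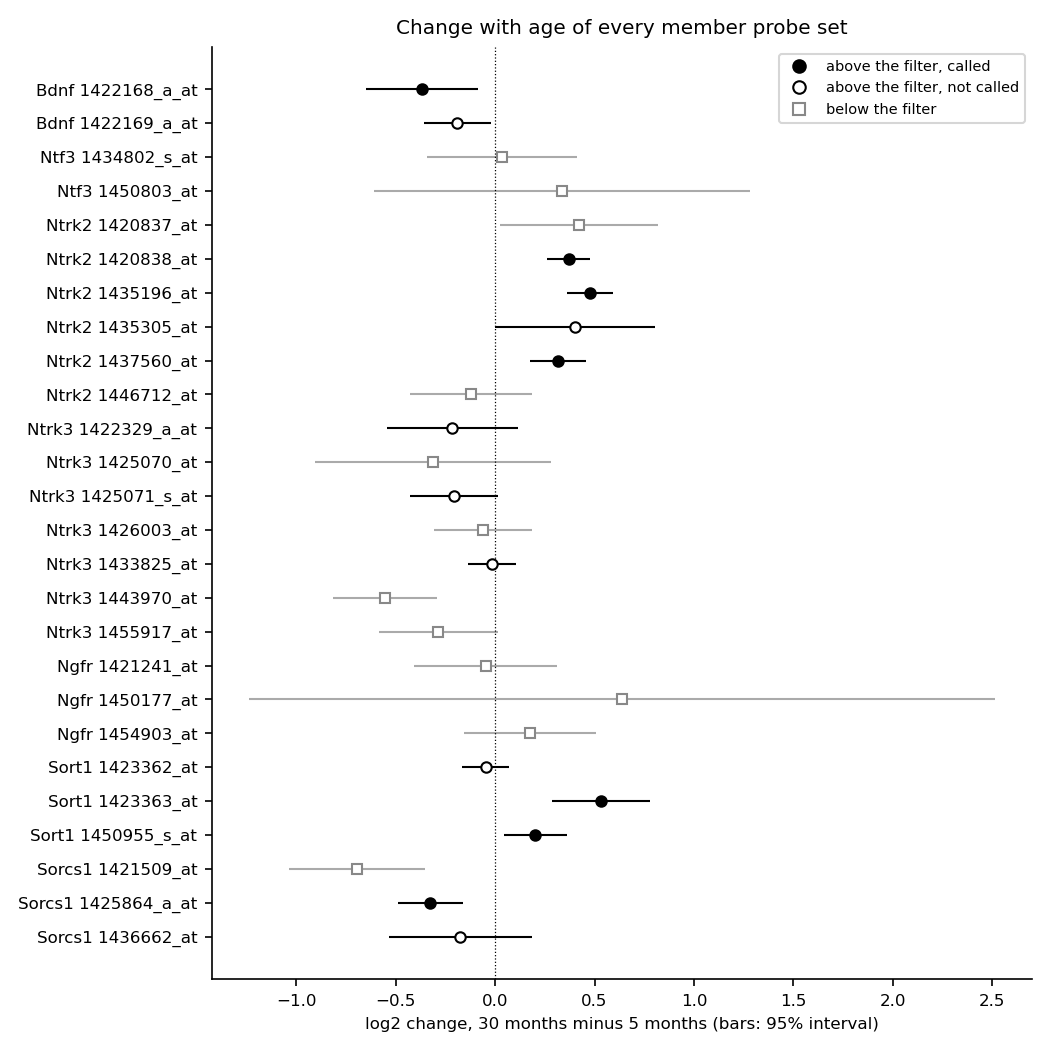
Log2 change, 30 months minus 5 months (x axis), of all 26 member probe sets (rows), each a point with its 95% confidence interval. Filled points passed limma's test, open points above the filter did not, and squares lie below the filter and are shown from the fit without a filter. Of the 4 bright Ntrk2 probe sets 3 passed on the higher side, and both Bdnf probe sets lie on the lower side, 1 of them past the threshold. Over all 22518 probe sets tested, 29.1% passed on the higher side and 11.8% on the lower side.

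Bdnf (chromosome 2), the main activity-dependent neurotrophin of the cortex, was lower in the old neocortex by its brighter probe set, 1422168_a_at. Its signal was 420, 342, 280.5, 327 and 353 in the 30-month mice numbered 2 to 6, against 384, 342, 464, 532 and 511 in the 5-month mice numbered 1 to 5. The ages overlapped: 3 of the 5 young mice lay above every old mouse, and young mouse 2 was level with old mouse 3. The means were 344 ± 50.4 at 30 months and 446 ± 81.6 at 5 months (SD, n = 5 each). The log2 change was -0.37 (SE 0.13), a fold of 0.776 with a 95% confidence interval of 0.641 to 0.938 (limma, adjusted p = 0.0307).

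The second Bdnf probe set, 1422169_a_at, was drawn from a transcript annotated as alternatively spliced. Its signal was 244, 222, 240.4, 263 and 244 in the old mice and 280.4, 256, 318, 282 and 251 in the young mice. Only old mouse 5 reached into the range of the young mice. Its log2 change was -0.19 (SE 0.08), which did not pass (limma, adjusted p = 0.0703) but was called without young mouse 5, at -0.22 (limma, adjusted p = 0.0460). The difference between the changes of the 2 probe sets was 0.18 with a 95% confidence interval of -0.13 to 0.48 (limma, adjusted p = 0.337).

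The Bdnf call rested on a narrow margin. It was lost in 9 of 22 alternatives, among them 6 that left out 1 array: young mouse 3, 4 or 5, or old mouse 3, 4 or 5. The change then lay between -0.30 and -0.37, with adjusted p-values from 0.0539 to 0.0797 (limma). Old mouse 2 had the highest Bdnf signal of the old mice, and it was also the highest old mouse for 53.2% of the 1466 genes that were lower at 30 months, against 24.8% of all genes tested. Without old mouse 2 the Bdnf change was -0.44 (limma, adjusted p = 0.0116). The part of that array in the Bdnf value was not tested further.

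The tested genes whose signal moved over the 10 arrays most like Bdnf were Rpf1, a ribosome assembly factor, Harbi1 and Supv3l1, a mitochondrial RNA helicase. The likeness was the root mean square difference of log2 values, each gene centred on its own mean. It was 0.09 for Rpf1, 0.10 for Harbi1 and 0.12 for Supv3l1, against a spread of Bdnf about its own mean of 0.28. Rpf1 had signals of 343, 296, 267, 281 and 269 in the old mice and 332, 311, 406, 444 and 412 in the young mice. The choice of Rpf1 by its likeness to Bdnf fixes that the 2 share a pattern over these arrays.

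Ntf3 (chromosome 6), the TrkC ligand, was dim on both of its probe sets. On 1434802_s_at the signal lay between 27.9 and 50.2 in the old mice and between 31.8 and 39.7 in the young mice. On 1450803_at it lay between 8.77 and 24.3 in the old mice and between 6.22 and 29.0 in the young mice. The ages overlapped on both, and neither probe set passed in the fit without a filter (limma, adjusted p = 0.904 and 0.620), which called 22.4% of all 45037 probe sets.

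**Figure D2:**
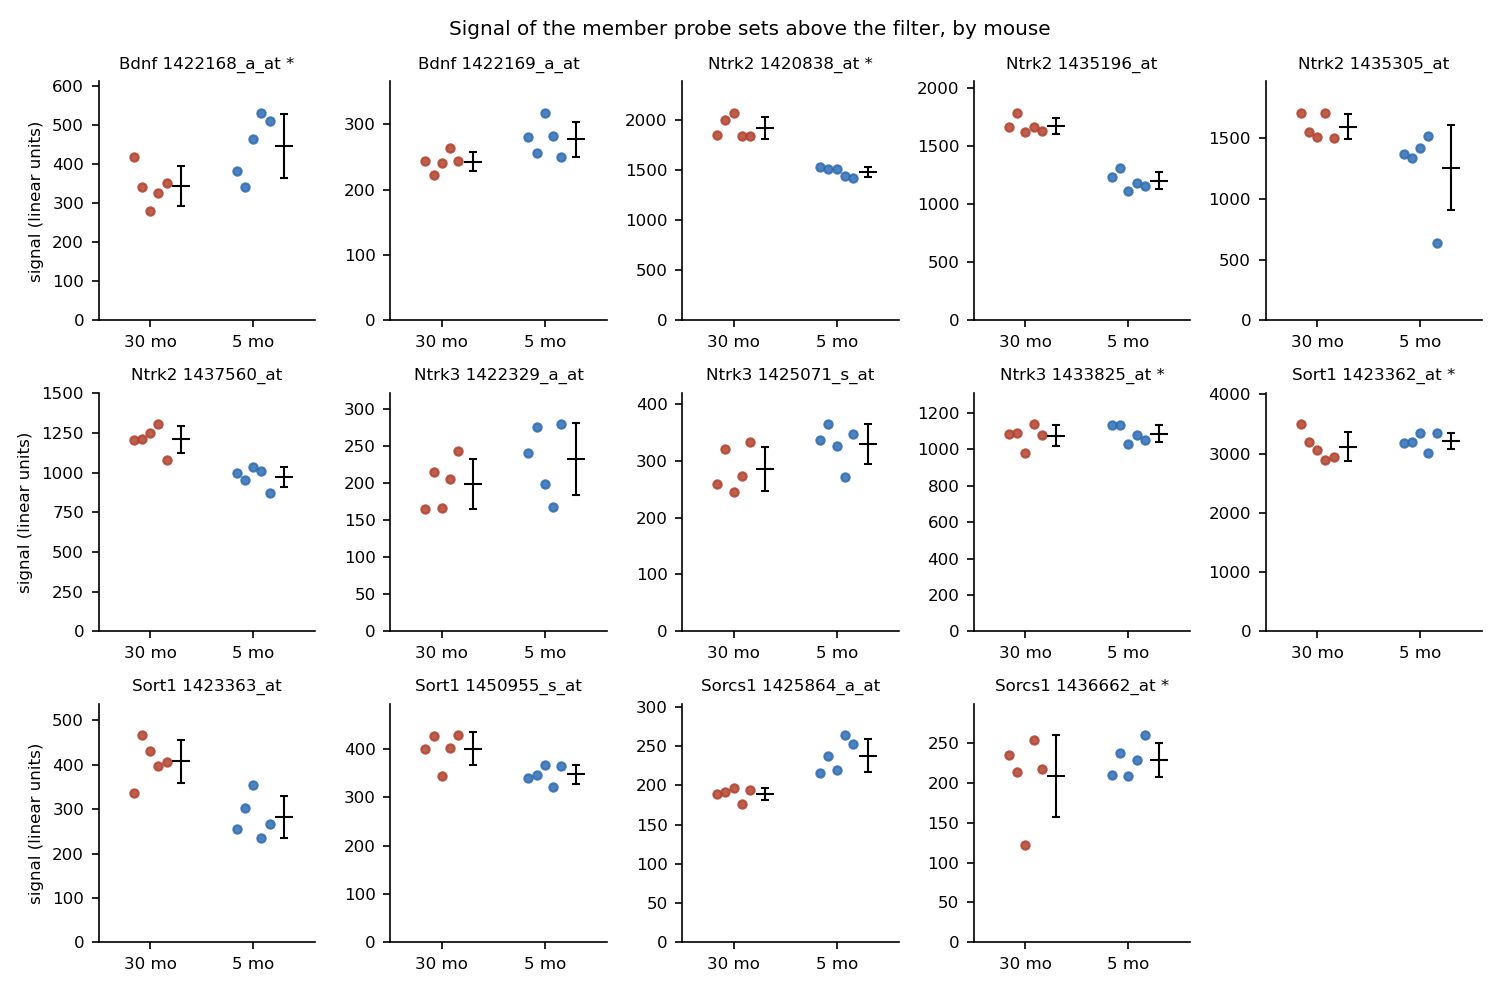
Signal in linear units, from 0 (y axis), of the 14 member probe sets above the filter, 1 panel each, with 1 point per mouse, the 5 mice of 30 months left and the 5 mice of 5 months right. Bars give the mean and SD, and a star marks the main probe set of a gene. The ages separate fully for Ntrk2 1420838_at, 1435196_at and 1437560_at (old above) and for Sorcs1 1425864_a_at (old below). Over all 22518 probe sets tested, every old mouse lay above every young mouse for 21.2% and below for 5.67%.

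Ntrk2 (chromosome 13), the BDNF receptor, was higher in the old neocortex. On its brightest probe set, 1420838_at, the signal was 1848, 1996, 2072, 1838 and 1842 in the old mice and 1533, 1510.5, 1515, 1441 and 1416 in the young mice. Every old mouse lay above every young mouse, as for 24.5% of all genes tested. The means were 1919 ± 108 at 30 months and 1483 ± 51.3 at 5 months (SD, n = 5 each). The log2 change was 0.37 (SE 0.05), a fold of 1.29 with a 95% confidence interval of 1.2 to 1.39 (limma, adjusted p = 9.44e-05). Ntrk2 was called in all 23 alternatives, with changes from 0.25 to 0.40.

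The other bright Ntrk2 probe sets moved the same way. The signal of 1435196_at was 1663, 1789.9, 1621, 1664 and 1632 in the old mice and 1238, 1311, 1119, 1188 and 1162 in the young mice, a log2 change of 0.48 (SE 0.05, limma, adjusted p = 4.74e-05). The signal of 1437560_at was 1205, 1215, 1253, 1309.5 and 1078.5 in the old mice and 998, 956, 1036, 1009 and 869 in the young mice, a log2 change of 0.32 (SE 0.07, limma, adjusted p = 0.00226). On both, too, every old mouse was above every young mouse, as for 21.2% of all probe sets tested. On 1435305_at the signal was 1708, 1550.3, 1508, 1712 and 1506 in the old mice and 1373, 1343, 1417, 1519.9 and 642 in the young mice. The change of 0.40 (SE 0.19) did not pass (limma, adjusted p = 0.101), and without young mouse 5, whose signal was less than any other by far, it was 0.18 and passed (limma, adjusted p = 0.0366).

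Because full-length and shortened TrkB are made from the same gene, the Ntrk2 probe sets were compared with each other within each array. Relative to 1420838_at, the change of 1435196_at was larger by 0.11 (95% confidence interval -0.03 to 0.24) and that of 1437560_at smaller by 0.05 (95% confidence interval -0.20 to 0.10). The difference for 1435305_at was 0.03 (95% confidence interval -0.38 to 0.45). None of the 3 differences passed in limma's test across 7876 such pairs, of which 39.7% passed (adjusted p = 0.189, 0.553 and 0.912). The descriptions in the annotated table do not say which of these probe sets reads the kinase form and which the shortened form, so the comparison is between probe sets and not between named isoforms. The 2 dim Ntrk2 probe sets had signals under 100 in every mouse, and neither passed in the fit without a filter (limma, adjusted p = 0.119 for 1420837_at and 0.580 for 1446712_at).

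**Figure D3:**
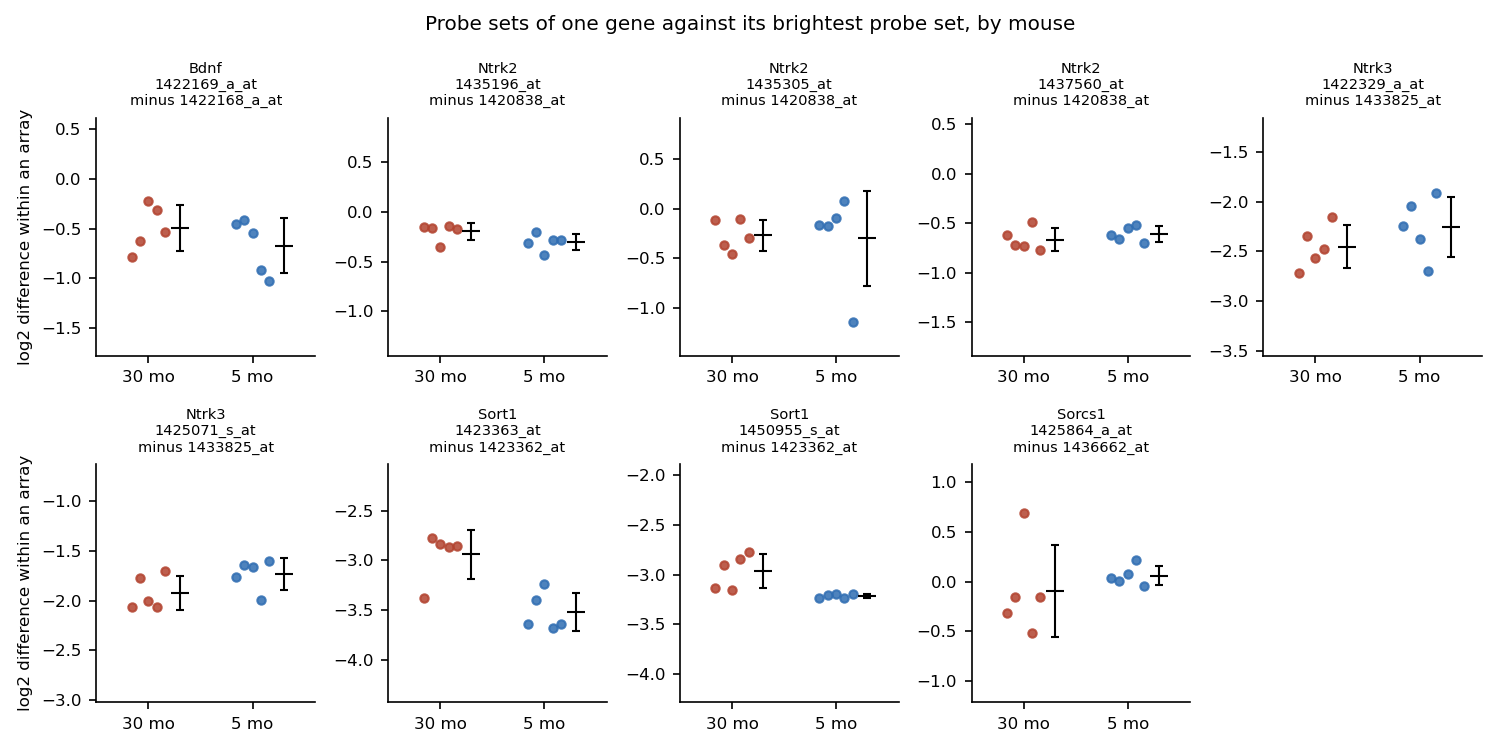
Log2 signal of a probe set minus that of the brightest probe set of the same gene in the same array (y axis), 1 panel per pair, with 1 point per mouse, 30 months left and 5 months right. Bars give the mean and SD. Among the 9 pairs only Sort1 1423363_at minus 1423362_at passed limma's test, with a difference of changes of 0.58. Over all 7876 pairs tested 39.7% passed.

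The genes most like Ntrk2 over the 10 arrays were Gas7, Rab5b, a GTPase of early endosomes, and Cntnap4, a neuronal adhesion protein, with root mean square differences of 0.04 each against a spread of Ntrk2 about its own mean of 0.19. Rab5b had signals of 353, 377, 403, 361 and 369 in the old mice and 290.3, 293, 304, 294 and 290.4 in the young mice. Here too the likeness was the ground of the choice.

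Ntrk3 (chromosome 7), the receptor of neurotrophin 3, was not called by any of its 3 bright probe sets. The main one, 1433825_at, had signals of 1083, 1092, 983, 1141 and 1080.0 in the old mice and 1136, 1135, 1029.7, 1081 and 1051 in the young mice. The ages overlapped throughout. The log2 change was -0.01 (SE 0.05), a fold of 0.990 with a 95% confidence interval of 0.912 to 1.07 (limma, adjusted p = 0.843). Quantile normalization gave -0.15 and a call (limma, adjusted p = 0.0151), with 20.4% of all genes called lower in that setting.

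The other Ntrk3 probe sets were weaker in signal and lower in value at 30 months without passing. On 1425071_s_at the signal was 259.6, 319.7, 245, 273 and 333 in the old mice and 336, 365, 326, 271 and 346 in the young mice, a log2 change of -0.20 (SE 0.10, limma, adjusted p = 0.126). Without young mouse 4 it was -0.27 and was called (limma, adjusted p = 0.0434). On 1422329_a_at the change was -0.21 (SE 0.15, limma, adjusted p = 0.278). On both, the old and young mice overlapped, and their difference from the change of the main probe set did not pass (limma, adjusted p = 0.176 and 0.322).

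Of the 4 dim Ntrk3 probe sets, 1426003_at is annotated as reading a non-catalytic isoform of TrkC, a form without the kinase. Its signal lay between 68.7 and 85.7 in the old mice and between 67.3 and 89.9 in the young mice, with no change that passed without a filter (limma, adjusted p = 0.745). On 1443970_at, drawn from an expressed sequence tag, every old mouse was below every young mouse, at 62.5 to 82.7 against 86.9 to 121. In the fit without a filter its log2 change was -0.55 (SE 0.12, limma, adjusted p = 0.0072), and that fit called 22.4% of all 45037 probe sets. The share of dim probe sets that separate the ages was not counted. Most of these signals lay under the median of their array, and the transcript that the probe set reads is not named in the table. The remaining dim probe sets, 1425070_at and 1455917_at, overlapped between the ages and did not pass without a filter (limma, adjusted p = 0.447 and 0.165).

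Ngfr (chromosome 11), the p75 receptor, had 3 probe sets, and all were below the filter. The brightest, 1454903_at, had signals of 93.7, 146, 109, 153 and 97.2 in the old mice and 95.4, 118, 95.2, 115 and 98.0 in the young mice. The second, 1421241_at, lay between 66.4 and 118 in the old mice and between 74.5 and 107 in the young mice, and 1450177_at was under 16 in every mouse. The ages overlapped on all 3, and none passed in the fit without a filter (limma, adjusted p from 0.449 to 0.864). Ntf5, another TrkB ligand outside the 7 genes, had a signal under 24 in every mouse and was not tested.

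Sort1 (chromosome 3), the proneurotrophin receptor sortilin, gave values that differed between its probe sets. The main one, 1423362_at, had signals of 3503, 3192, 3063, 2883 and 2933 in the old mice and 3177, 3189.6, 3350.2, 3015 and 3338 in the young mice, with a log2 change of -0.05 (SE 0.05, limma, adjusted p = 0.493). The weaker probe set 1423363_at had signals of 336, 468, 431, 397 and 406 in the old mice and 256, 303, 354, 235 and 267 in the young mice. Old mouse 2 was the only old mouse under the highest young mouse. Its log2 change was 0.53 (SE 0.11), a fold of 1.45 (limma, adjusted p = 0.00268).

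Within each array, 1423363_at minus 1423362_at was larger at 30 months by 0.58 on the log2 scale, with a 95% confidence interval of 0.28 to 0.88 (limma, adjusted p = 0.00632). This was the single called pair among the 9 pairs of the 7 genes, against 39.7% of all 7876 pairs tested. The third probe set, 1450955_s_at, was designed from the same sequence tag as 1423363_at, so the 2 are not independent readings. Its change was 0.20 (SE 0.07, limma, adjusted p = 0.0408). That call was lost without young mouse 1, 2 or 4 or old mouse 2, 3, 5 or 6, with changes from 0.17 to 0.20 (limma, adjusted p from 0.0630 to 0.0957). Its difference from the main probe set was 0.25 (95% confidence interval 0.04 to 0.46), above the young mice in all 5 old mice and not called (limma, adjusted p = 0.0591). Without old mouse 2 or 4 it was called, at 0.29 and 0.30 (limma, adjusted p = 0.0387 and 0.0302). All 3 probe sets are annotated to Sort1 without a named isoform. The mean of the 3 gave the gene a change of 0.23 (limma, adjusted p = 0.0103) in place of -0.05.

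Sorcs1 (chromosome 19), the neuronal sorting receptor, was lower in the old neocortex on 1 of its 2 probe sets above the filter. On 1425864_a_at, annotated as the splice variant SorCS1c, the signal was 189, 191, 196, 177 and 194 in the old mice and 215, 238, 219, 264 and 253 in the young mice. Every old mouse lay below every young mouse, as for 5.67% of all probe sets tested. The log2 change was -0.32 (SE 0.08), a fold of 0.798 (limma, adjusted p = 0.00457).

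The other Sorcs1 probe set, 1436662_at, was slightly brighter on average and was therefore the gene's main one. Its signal was 235, 213, 121, 253 and 217 in the old mice and 209.95, 237, 208, 228 and 260.0 in the young mice. Old mouse 4, at 121, stood far below the rest. The log2 change was -0.17 (SE 0.16, limma, adjusted p = 0.400) and without old mouse 4 it was 0.01. The mean of both tested probe sets gave the gene -0.25 and a call (limma, adjusted p = 0.0483). Without old mouse 2 or 5 the other probe set became the main one, and the gene was called at -0.32 and -0.30 (limma, adjusted p = 0.00680 and 0.0111). The 2 probe sets did not pass the test of their difference (-0.15, 95% confidence interval -0.54 to 0.24, limma, adjusted p = 0.525), but without old mouse 4 that difference was -0.35 and passed (limma, adjusted p = 0.00918). On the dim 1421509_at every old mouse was below every young mouse, at 29.5 to 41.3 against 42.6 to 62.8 (log2 change -0.69, SE 0.16, adjusted p = 0.00882, limma without a filter). That fit called 22.4% of all 45037 probe sets. The share of dim probe sets that separate the ages was not counted.

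The other 3 receptors of the sortilin family were all higher in the old neocortex on their main probe sets. Sorcs2, which with p75 binds the BDNF precursor, had signals of 502, 545, 492, 495 and 453 in the old mice and 374, 358, 324, 374 and 321 in the young mice. Its log2 change was 0.51 (SE 0.07, limma, adjusted p = 9.32e-05). Sorcs3 rose by 0.34 (SE 0.06, limma, adjusted p = 0.000648) and Sorl1, a sorting receptor of the amyloid precursor, by 0.21 (SE 0.05, limma, adjusted p = 0.00396). For each of the 3 all old mice lay above all young mice, as for 24.5% of all genes tested. In the same test 34% of all genes were called higher. Under 2 other scalings, quantile normalization and equal medians over the tested probe sets, 2 of the 3 were called higher, against 22.9% and 21.8% of all genes.

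**Figure D4:**
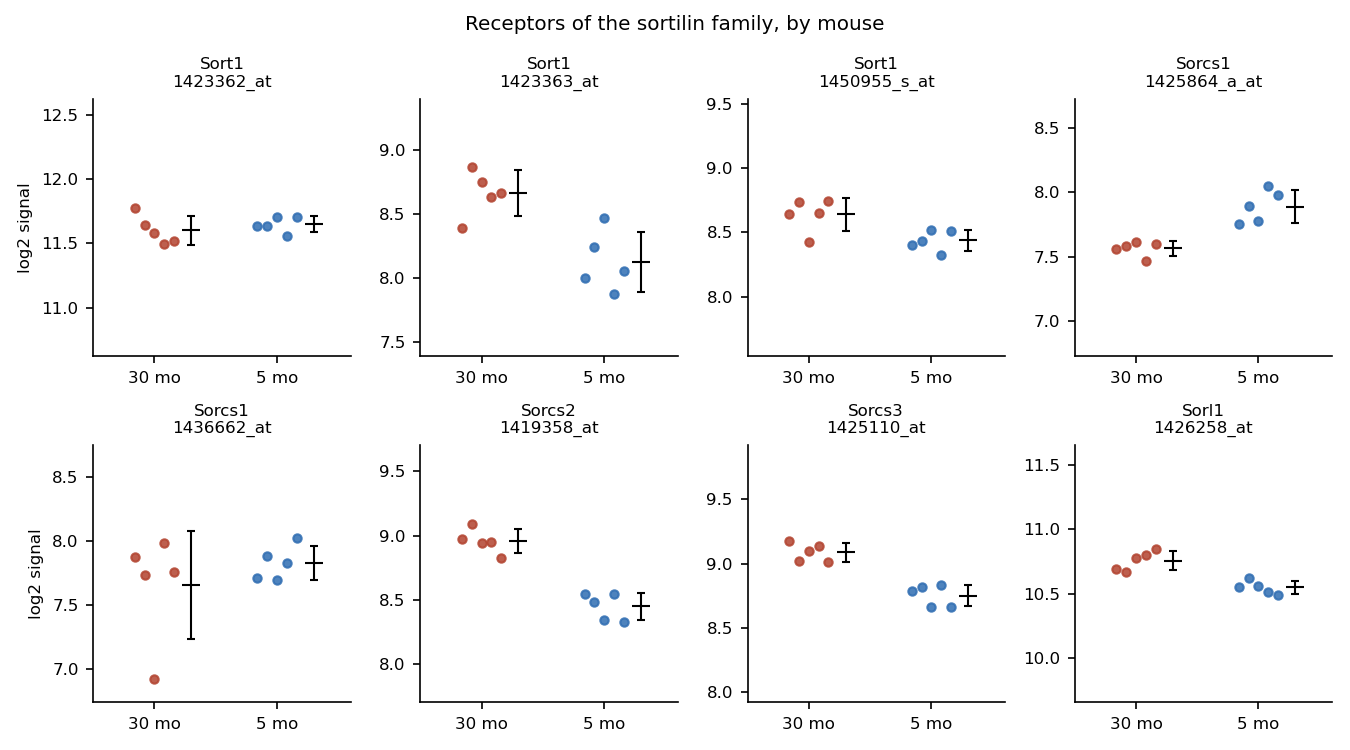
Log2 signal (y axis) of the 3 Sort1 and 2 Sorcs1 probe sets above the filter and of the main probe sets of Sorcs2, Sorcs3 and Sorl1, 1 panel each, with 1 point per mouse, 30 months left and 5 months right, and bars for the mean and SD. Sorcs2, Sorcs3 and Sorl1 lie higher in all 5 old mice and Sorcs1 1425864_a_at lies lower in all 5, while the ages overlap in the other 4 panels. All old mice lay above all young mice for 24.5% of all genes tested, and below for 5.67% of all probe sets tested.

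The authors' deposited table gave its own comparison of the ages, and 4 of the 26 member probe sets met its criteria, against 8.96% of all probe sets. In the authors' deposited table these were Ntrk2 1420838_at with a signed fold of 1.3 and 1435196_at with 1.38, Sort1 1423363_at with 1.44, and Sorcs1 1421509_at with -1.62. In the authors' deposited table Bdnf had signed folds of -1.3 on 1422168_a_at and -1.14 on 1422169_a_at, and neither met the criteria.

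Of 27 genes through which Trk receptors signal inside the cell, 25 were tested, 14 were higher and 2 lower, and 9 were not called. Over all genes tested 34% were higher and 12.3% lower. The median log2 change was 0.19, against 0.08 over all genes tested. Gab2, a docking protein for phosphatidylinositol 3-kinase, changed most among the 25, by 0.99 (SE 0.11, limma, adjusted p = 2.66e-05). Kidins220, a Trk substrate, rose by 0.34, Frs2, an adaptor between Trk receptors and the MAP kinase cascade, by 0.41, and Rps6ka2, a kinase at the end of that cascade, by 0.37 (limma, adjusted p at most 0.000134 for the 3). The 2 lower genes were Frs3 (-0.47) and the transcription factor gene Creb1 (-0.45), named here after their values were seen, and another Creb1 probe set was called higher. With equal medians over the tested probe sets 9 of the 25 were higher and 3 lower, against 21.8% and 22.6% of all genes.

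Of 11 genes that work with p75, 5 were higher, 2 lower and 4 not called, near the 34% higher and 12.3% lower of all genes, and the median was 0.11 against 0.08. Bex3, which binds the p75 death domain, fell by 0.20 (SE 0.03) (limma, adjusted p = 0.000231). Rhoa, a GTPase downstream of p75, rose by 0.29 and Adam17, the protease that sheds p75, by 0.25 (limma, adjusted p = 0.0103 and 0.0132). The mean of the 3 Adam17 probe sets gave -0.05. With equal medians over the tested probe sets 2 of the 11 were higher and 3 lower, against 21.8% and 22.6% of all genes.

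Of 13 genes that cut or release proneurotrophins, 11 were tested, and 3 were higher, 3 lower and 5 not called, against 34% higher and 12.3% lower over all genes. Their median was 0.00 against 0.08. Cadps2, a vesicle priming protein linked to BDNF release, rose by 0.49 (SE 0.05) and Furin, which cleaves proneurotrophins, also by 0.49 (SE 0.08) (limma, adjusted p = 2.84e-05 and 0.000465). Pcsk2, a prohormone convertase, rose by 0.27, and Pcsk6, another convertase, fell by 0.44 (SE 0.08) (limma, adjusted p = 0.00158 and 0.000845).

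Of 10 regulators of Bdnf transcription, all tested, 3 were higher, 2 lower and 5 not called, near the 34% and 12.3% of all genes, with a median of 0.03 against 0.08. Crtc1, a coactivator of CREB, rose by 0.37 (SE 0.05) (limma, adjusted p = 0.000143). Arnt2, also among the higher genes, rose by 0.16 (SE 0.06) (limma, adjusted p = 0.0367). Its call was lost in 15 of 23 alternatives, and another Arnt2 probe set was called lower. Usf1, a factor known in rat to bind the exon IV promoter, fell by 0.67 (SE 0.10), and Npas4, an activity-induced factor, fell by 0.53 (SE 0.17) (limma, adjusted p = 0.000207 and 0.0206).

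Genes induced by neuronal activity, the class to which Bdnf belongs, were lower or not called. Of 12, 8 were lower and 0 higher, against 12.3% and 34% of all genes, with a median log2 change of -0.38 against 0.08 over all genes. Egr2 fell by 1.03 (SE 0.13), Arc by 0.39 (SE 0.09), Nr4a1 by 0.36 (SE 0.09) and Egr1 by 0.26 (SE 0.07) (limma, adjusted p = 4.76e-05, 0.00296, 0.00488 and 0.00551). Quantile normalization and equal medians over the tested or over all probe sets also called 8 lower, against 20.4%, 22.6% and 10.7% of all genes. The mean log2 signal of the 12 genes lay between 9.80 and 10.33 in the old mice and between 10.34 and 10.61 in the young mice. Npas4 stands in both this list and that of Bdnf transcription.

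**Figure D5:**
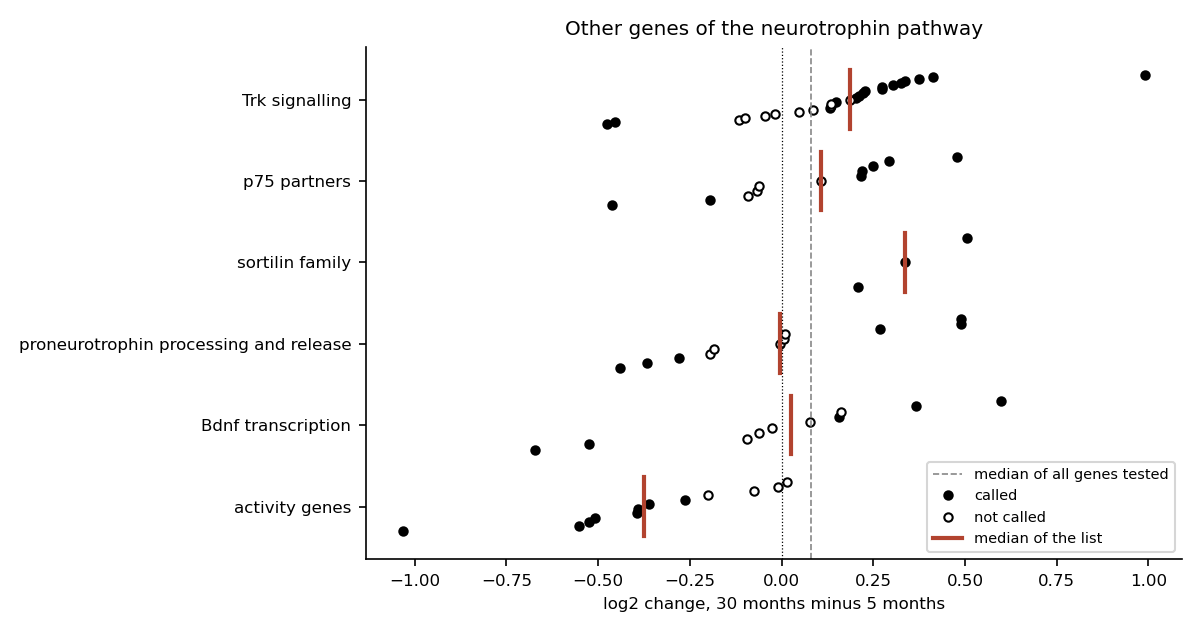
Log2 change, 30 months minus 5 months (x axis), of each tested gene in 6 lists of the neurotrophin pathway (rows). Filled points were called by limma and open points were not, short bars give the list medians and the dashed line the median of all genes tested, 0.08. The activity genes lie on the lower side with a median of -0.38, and the Trk signalling genes have a median of 0.19.

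The labels name the tissue as neocortex and name no cell types. All 8 neuron markers were above the filter, with a mean log2 signal of 11.77 to 11.87 at 30 months and 11.73 to 11.87 at 5 months, and 1 of the 8, the glutamate transporter gene Slc17a7, was called, higher by 0.56 (limma, adjusted p = 0.000384). The neuron marker with the next smallest adjusted p, Stmn2, was at -0.14 (limma, adjusted p = 0.0669). Of the 7 markers of astrocytes, cells in which Ntrk2 is also transcribed, 6 were higher. Beside both lists, 34% of all genes tested were higher and 12.3% lower. The mean log2 signal of the astrocyte markers was 10.58 to 10.68 at 30 months and 9.82 to 10.05 at 5 months. Gfap, the filament of reactive astrocytes, rose by 2.04, and Slc1a3, a glutamate transporter, by 0.52 (limma, adjusted p = 3.93e-09 and 1.08e-05). The part of astrocytes in the Ntrk2 value was not tested.

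Markers of other cells of the cortex are set here against the 34% of all genes that were higher and the 12.3% that were lower. Of the 7 microglia markers 4 were higher and 2 lower, with C1qa at 1.32 and C1qb at 1.19, and of 5 tested vessel markers 4 were higher, with Slc2a1 at 0.84 and Flt1 at 0.66. Of 7 oligodendrocyte markers 3 were higher, with Mobp at 0.55 and Cnp at 0.34, and of 6 precursor markers 3 were higher and 1 lower, with Lhfpl3 at 0.42 and Gpr17 at -0.53. The counts of oligodendrocytes and their precursors are near the shares of all genes. The values of the named markers are log2 changes that limma called, with adjusted p-values of at most 0.00199. Their part in the member values was not tested.

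Markers of tissue beside the neocortex were at mixed levels. The 6 striatum markers were all above the filter, with 1 higher (Rgs9, 0.43) and 1 lower (Ppp1r1b, -0.13) (limma, adjusted p = 0.000390 and 0.0496). Over all genes tested 34% were higher and 12.3% lower. The mean log2 signal of the striatum markers was 9.92 to 10.18 at 30 months and 9.86 to 10.02 at 5 months. Most other such markers were dim: 2 of 6 choroid plexus, 3 of 6 meninges, 2 of 5 dentate gyrus and 2 of 5 basal forebrain cholinergic markers were tested. Ttr (-0.81) and Clic6 (-0.29) of the choroid plexus, Igf2 (-0.59) of the meninges, C1ql2 (-0.31) of the dentate gyrus and Chat (-0.36) of cholinergic neurons were lower (limma, adjusted p at most 0.0445). The calls of Ppp1r1b and Ttr were lost in 16 and 13 of 23 alternatives, and those of C1ql2 and Chat in 10 and 5 of 22. Clic6 lost its call in 2 of 23 and Igf2 in 1 of 23. In old mice 3 and 6 Ttr was at 10851 and 10050, against 7969 to 10541 in the young mice. Dcn (0.34), Prox1 (-0.25) and Lhx8 (-0.09) did not pass (limma, adjusted p = 0.0815, 0.0940 and 0.751). The mean log2 signal of the 5 choroid plexus markers on the array spanned 7.87 to 8.90 in the old mice and 8.24 to 8.62 in the young mice, and their part in the member values was not tested.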

How the data were processed

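Gene expression was measured in neocortex of 5 mice of 30 months and 5 of 5 months on 1 Affymetrix array each. The deposited values are linear probe set intensities. The submitters' processing notes name GCOS, and the sources used here do not say how probes were summarised or arrays scaled. Array medians lay between 114.5 and 122.6. The signed fold scores and p-values in the authors' deposited table come, per the file headers, with 2 criteria: a fold whose lower bound exceeds 1.2, and p-values up to 0.1. The old arrays' column names carry a prefix that the young lack; its meaning is not given, and it cannot be told apart from age.

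Probe sets were named by gene identifier or, for 60, by accession through a RefSeq table of GRCm38.p6: 36299 of 45037 had 1 gene. Signals under 1 (55 values) were set to 1 and log2 was taken. Probe sets with a mean above the median were tested with limma 3.58.1 (R 4.3.3; variance trend, two-sided), over 11963 genes, 22518 probe sets and 7876 within-gene pairs, with Benjamini-Hochberg adjustment. The fits were also run on simulated data, and the outcome is not given here. The mouse numbers were not taken to pair the ages: same-numbered mice 2 to 5 had correlations of deviations of -0.33, -0.04, 0.08 and 0.11. The p-values set the age difference against the spread between these mice, taken as independent. Whether mice shared litters is not given. The number of arrays limits the precision.

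The 7 genes and the 18 lists (7 of pathways, 11 of cell types) were chosen with earlier results of these data known. Named genes were the 7 with every probe set, up to 4 called genes of each pathway list with the smallest adjusted p, all genes of the sortilin and other neurotrophin lists, the 3 genes most like each called gene (without x_at probe sets, clone or predicted genes) and 2 markers per cell type list. Some genes that this rule names are not reported here. Alternatives were quantile normalization, equal medians, 16 or 64 added to the signal, other filters, variance models and thresholds, averaged probe sets, mouse number as a block, and each array left out. Equal medians over the tested probe sets, and mice 2 to 5 without the block, were added after seeing the data. Figures used Python 3.11.15, pandas 2.3.3, numpy 2.4.6 and matplotlib 3.10.9.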

Additional observations from a re-analysis of the deposited data

Results flagged for a closer look

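Dixon's test, at a critical value of 0.71 for 5 samples, was applied to log2 signals. The 26 probe sets gave 52 groups of 5 signals, and 4 groups held a sample far from the others. The values printed below are in linear units. Chance alone gives about 5% of groups. Ntrk2 1435196_at was at 1789.89 in 30-month mouse 3, where the next old mouse was at 1664.34. Ntrk2 1435305_at was at 642.07 in 5-month mouse 5, where the next young mouse was at 1342.77, and the other 3 bright Ntrk2 probe sets had no such gap in that mouse. Sorcs1 1421509_at was at 42.64 in the same 5-month mouse 5, where the next was at 58.53. Sorcs1 1436662_at was at 121.35 in 30-month mouse 4, where the next was at 213.32, while 1425864_a_at of the same gene was at 196 in that mouse, the highest of the old mice.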

How the results depend on the processing

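The call of Ntrk2 held in 23 alternatives and that of Bdnf in 13 of 22. The member genes called (2 in the report) numbered 1 without a filter, with the filter at the upper quartile, at an adjusted p under 0.01 and with the replicate block over mice 2 to 5, numbered 4 with the mean of a gene's probe sets, and 1 to 3 without 1 array. The member probe sets called (7) numbered 3 with the filter at the upper quartile and 5 to 8 without 1 array. The pairs called (1) numbered 2 without a filter, without a variance trend and with array weights, 0 with the filter at the upper quartile and with the replicate block, and 1 to 3 without 1 array. With the block the Bdnf change was -0.43 (limma, adjusted p = 0.0697) and the Sort1 pair 0.53 (limma, adjusted p = 0.0592). The same mice without the block kept both calls (limma, adjusted p = 0.0327 and 0.0325).

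Signs turned in a few places. Ntrk3 1433825_at was at 0.0055 with equal medians over all probe sets, 0.0087 with array weights, and from -0.037 to 0.017 without 1 array (0.0015 and 0.0011 without young mouse 1 or 2, 0.0173 without old mouse 4). Sorcs1 1436662_at was at 0.0097 without old mouse 4 (-0.26 to 0.0097 without 1 array), and the gene Sorcs1 lay between -0.32 and 0.0097, since another probe set became its main one without old mouse 2 or 5. The Ntrk2 pair of 1435305_at was at -0.18 without young mouse 5, -0.0060 without old mouse 2 and -0.0090 without old mouse 5 (-0.18 to 0.13 without 1 array). With averaged probe sets Sort1 was at 0.23 and Adam17 at -0.048. The median change of all genes was 0.08, and 0.00 with quantile normalization, 0.10 with equal medians over all probe sets and -0.01 over the tested ones. The genes called, 4068 higher and 1466 lower, were 2738 and 2435 with quantile normalization and 2602 and 2702 with equal medians over the tested probe sets. Those scalings leave Ntrk2 higher at 0.25 and 0.28 and Bdnf lower at -0.45 and -0.46. The cause of these shifts was not tested.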
